A study of Mus musculus with 12 samples.

Results

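Nkx2-5+ cardiac progenitors (CPs) are cells of the heart-forming region of the mouse embryo that carry the RNA of Nkx2-5, a homeodomain factor of the heart, and in which that of Tbx5, a T-box factor of the first heart field, was not detected. The 6 cells described here are the 3 Nkx2-5 single positive cells of the early allantoic bud (EB) stage and the 3 of the early head fold (EHF) stage, chosen by their labels among the 12 single cells of the series, which has 3 cells in each of 4 subpopulations. The other 6 are EB Tbx5+ CPs and EHF Nkx2-5+/Tbx5+ CPs. All came from embryos of the CD1 strain, with no treatment named, and each subpopulation was defined by PCR on the amplified cDNA of the cell, after preparations with the endoderm marker Sox17 or the neural marker Sox2 had been set aside and with the lateral plate marker Cfc1 required. No embryo is named for any cell. The 3 cells of a stage were therefore treated as 1 sample without a test, and values are given cell by cell. Replicates 1, 2 and 3 are separate cells with no order, and each was a library of its own, so the effects of cell and library cannot be told apart.

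Heart precursors arise in the primitive streak, where nascent mesoderm transiently carries Mesp1, and migrate forward to form the cardiac crescent. Precursors of the first heart field, marked by Tbx5, differentiate early and build mainly the left ventricle. Those of the second heart field, marked among others by Isl1, Fgf8 and Fgf10, keep dividing behind the crescent and add the right ventricle and the outflow tract. Canonical WNT signals specify mesoderm and later hold back cardiac differentiation. The comparison asks which genes differ between Nkx2-5+ CPs of the earlier and of the later stage.

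The measured quantity was the number of reads of a gene scaled by all reads that aligned in that cell (RPM), which is not corrected for gene length, so levels are compared between cells and not between genes. Aligned reads were 27764442, 22681504 and 35891446 in the EB cells and 33505486, 35445587 and 12475588 in the EHF cells, and 3 reads, the most that a count of 0 allows, were worth 0.0836 to 0.240 RPM, for counting error only. Of 14063 gene symbols, 4558 reached 10 RPM on average in these 6 cells and were compared. EHF replicate 2 stood apart from the other 5 cells: 2024 of the compared genes were at 1 RPM or more in it, against 2985 to 3589, and its 100 most abundant genes took 49.0% of its RPM, against 27.5% to 32.2%. It also had most of the immediate early and stress RNA described below, and differences that rest mostly on it are given also without it.

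The label genes were checked first. Nkx2-5 was at 33.6, 41.9 and 1.48 RPM in EB replicates 1, 2 and 3 and at 201, 242 and 34.7 RPM in EHF replicates 1, 2 and 3. It was above 0 in each of the 6 cells, EB replicate 3 was lowest at 1.48 RPM, and the EHF replicate 3 value lay between the EB values, so the stages overlapped (log2 difference 2.25). Tbx5 is listed at 0 in all 6 cells, and Sox17 is listed at 0 in 5 cells and was at 0.0895 RPM, the worth of 3 reads, in EHF replicate 1. Sox2 was not analysed here. Cfc1, the NODAL co-receptor gene that the PCR definition required, was at 0.072, 0.0882 and 45.3 RPM at EB and 189, 5.13 and 22.8 RPM at EHF, so EB replicates 1 and 2 held almost none of it. Myl7, the atrial myosin light chain, overlapped between the stages at 82.4, 146 and 536 against 144, 326 and 17.6 RPM, and Myl2, the ventricular light chain, is listed at 0 in 5 of the 6 cells and was at 0.223 RPM in EB replicate 3.

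Differences between the stages are given on a log2 scale as EHF minus EB, after adding 10 RPM to the mean of the 3 cells of each stage, which understates the difference of low genes. A gene is called higher or lower at EHF where all 3 EHF cells lay above or below all 3 EB cells. Of the 4558 genes, 101 were higher in this way (2.22% of all compared) and 482 were lower (10.6%). In size, 960 genes were at least 2-fold higher (21.1%) and 1899 at least 2-fold lower (41.7%), and the median over all genes was -0.55. Lower values were thus more common than higher ones. Every list median below is to be read beside -0.55 and every list count beside these shares. Summed over all listed genes, RPM was 548603, 534566 and 499769 at EB and 498402, 486649 and 417129 at EHF. Compared genes at 1 RPM or more were 3589, 3473 and 3399 at EB and 3390, 2024 and 2985 at EHF. Both were lower in each EHF cell than in any EB cell, but EHF replicate 1 lay only just below EB replicate 3 in both. Their part in the excess of lower genes was not tested. When the RPM of each cell was rescaled to its sum without the 100 most abundant genes, the median was -0.39 and 115 genes were higher and 442 lower.

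**Figure D1:**
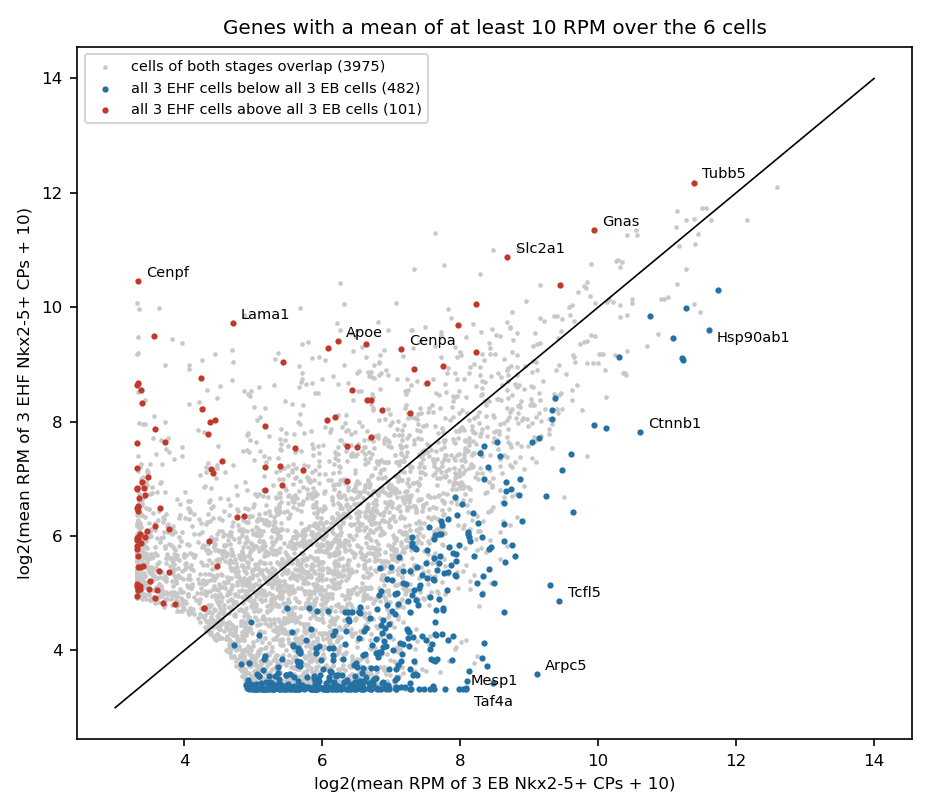
Mean of the 3 EB Nkx2-5+ CPs (x axis) against the mean of the 3 EHF Nkx2-5+ CPs (y axis), both as log2(RPM + 10), for the 4558 genes compared; the line marks equal means. Red points are the 101 genes with all 3 EHF cells above all 3 EB cells and blue points the 482 with the reverse, many of which lie at the lower edge, near 0 RPM at EHF.

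Many of these genes were near or at 0 in a whole stage. Of the 482 lower genes, 90 had no more than 3 reads in any EHF cell, and 307 had at least 10 RPM in every EB cell. Of the 101 higher genes, 21 had no more than 3 reads in any EB cell and 61 had at least 10 RPM in every EHF cell. A call by this rule can still rest mostly on 1 cell, and leaving a cell out raises the counts because fewer cells must then be apart. Without EHF replicate 1, 177 genes were higher and 1129 lower, without EHF replicate 2 these were 362 and 618, and without EHF replicate 3 they were 214 and 793. Without EB replicates 1, 2 or 3 in turn, 207, 187 and 188 genes were higher and 736, 784 and 837 lower. Among the 482 lower genes, 458 were at least 2-fold lower also without EHF replicate 2, and among the 101 higher genes 82 were at least 2-fold higher without it.

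Cells of the same stage were hardly more alike than cells of different stages. Across the 4558 genes, the mean Spearman coefficient of RPM was 0.344 for the 3 pairs within EB (0.330 to 0.367) and 0.329 for the 3 pairs within EHF (0.290 to 0.381). For the 9 pairs of an EB with an EHF cell it was 0.321 (0.250 to 0.395). Genes are not independent replicates and the pairs share cells, so these are descriptions. With a minimum of 50 RPM the corresponding means were 0.363, 0.228 and 0.256.

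The gap of a gene was taken between the nearest cells of both stages, after adding 10 RPM to each. The widest gap among the lower genes was that of Taf4a, which encodes a subunit of the general transcription factor TFIID. It was at 281, 244 and 256 RPM in the EB cells and at 0.0597, 0.0282 and 0 RPM in the EHF cells, a log2 difference of -4.75. Arpc5, a subunit of the actin-branching ARP2/3 complex (chromosome 1 from 152766542 to 152775597 in GRCm38), was at 205, 827 and 594 RPM at EB and 0.866, 0.282 and 4.89 RPM at EHF (-5.52). Both were thus present in each EB cell and almost absent from each EHF cell. Stk4, a kinase of the Hippo pathway (chromosome 2 from 164070322 to 164155524), was at 254, 393 and 138 RPM at EB and 0.537, 0.0846 and 0 RPM at EHF (-4.73). Tcfl5, a basic helix-loop-helix factor, was at 619, 758 and 673 against 47.4, 0.197 and 9.30 RPM (-4.58), and Yaf2, a partner of Polycomb proteins, at 292, 271 and 369 against 6.83, 0.0564 and 6.81 RPM (-4.46). The 3 EB values of Taf4a, Tcfl5 and Yaf2 each lay within 1 log2 unit, while the EHF cells ranged from 0 to 47.4 RPM.

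Other genes with wide gaps or large differences of the means were lower in each EHF cell. Sfr1, which acts in repair by recombination, was at 207, 412 and 361 RPM at EB and 7.64, 0.141 and 1.76 RPM at EHF (-4.68). The zinc transporter gene Slc30a5 was at 83.7, 310.4 and 333 against 0.0298, 0.0282 and 0.0802 RPM (-4.65). Elavl1, which encodes the RNA-binding protein HuR (chromosome 8 from 4285382 to 4325413), was at 588, 970.2 and 308 against 43.2, 7.67 and 25.1 RPM (-4.16). Here the EHF cells kept a measurable level, below the lowest EB cell. Mtf1, a metal-responsive transcription factor, was at 107, 75.4 and 64.7 against 0.889, 0 and 2.41 RPM (-3.06), and Usp22, a histone deubiquitinase of the SAGA complex, at 566, 219 and 8.72 against 0.418, 0.903 and 1.92 RPM (-4.63). Glipr2, Degs2, Isoc1, Myo19, Zfp280b and Dpysl5 differed in the same direction, by -4.49, -4.23, -4.04, -3.37, -3.73 and -5.06.

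Among the higher genes, the widest gap was that of Cenpf, a kinetochore protein gene (chromosome 1 from 189640606 to 189688086), with 0.036, 0 and 0.0836 RPM in the EB cells and 132, 3906 and 153 RPM in the EHF cells. Its log2 difference was 7.13, and 3.92 without EHF replicate 2. Col18a1, a basement membrane collagen (chromosome 10 from 77052178 to 77166548), was at 0.036, 31.9 and 0 RPM at EB and 249.9, 328 and 158 RPM at EHF (3.63), so its EHF values were high in each cell. Apoe, a lipid transport protein gene, was at 103, 39.2 and 52.9 against 514, 1223 and 268 RPM (3.18). Acvr2b, a receptor for activin and NODAL-related ligands (chromosome 9 from 119402118 to 119434995), was at 27.0, 1.68 and 11.8 against 153, 71.5 and 223 RPM (2.76). Runx1t1, a transcriptional corepressor gene, was at 1.22, 4.81 and 3.65 against 147, 22.3 and 401 RPM (3.92), and Nudt19 at 1.87, 1.28 and 0.306 against 139.9, 22.9 and 199 RPM (3.55). Acvr2b, Runx1t1 and Nudt19 were lowest in EHF replicate 2 among the EHF cells, unlike Cenpf, Col18a1 and Apoe, which were highest there.

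Of the 101 higher genes, 13 are listed at 0 in all 3 EB cells, so no fold is given for them. Cdc42ep5, an effector of the small GTPase CDC42, was at 47.1, 186 and 79.8 RPM in the EHF cells. Trio, a nucleotide exchange factor gene for small GTPases, was at 49.8, 12.1 and 94.7 RPM and Ascc1 at 96.5, 10.4 and 26.2 RPM. In Sfi1 and Igsf9 the EHF values came nearly all from replicate 2, at 0.0895, 1131 and 38.3 and 0.806, 564 and 0.24 RPM.

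Several of the largest means at EHF rested on EHF replicate 2. Atg7, an enzyme of autophagy, was at 0, 0.0441 and 0.251 RPM at EB and 9.73, 994 and 191 RPM at EHF, with a log2 difference of 5.34 and of 3.45 without EHF replicate 2. Ephb2, an ephrin receptor gene, was at 3.17, 0 and 2.40 against 25.6, 2054 and 60.8 RPM (5.93, and 2.17 without that cell). Map1s was at 55.7, 1032 and 4.01 RPM at EHF (5.17, and 1.94 without it), and the growth factor receptor gene Igf1r at 114, 547 and 7.37 RPM (4.28, and 2.57 without it). For Pmm1 and Myo9b the differences were 4.94 and 4.52, and 1.75 and 2.41 without it. Each of these 6 genes stayed above 1 on the log2 scale without EHF replicate 2. The remaining widest gaps, of Mrpl52, Galt and Atf7ip, came with differences of 1.90, 2.63 and 3.30. Without EHF replicate 3 that of Atf7ip was 2.13.

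**Figure D2:**
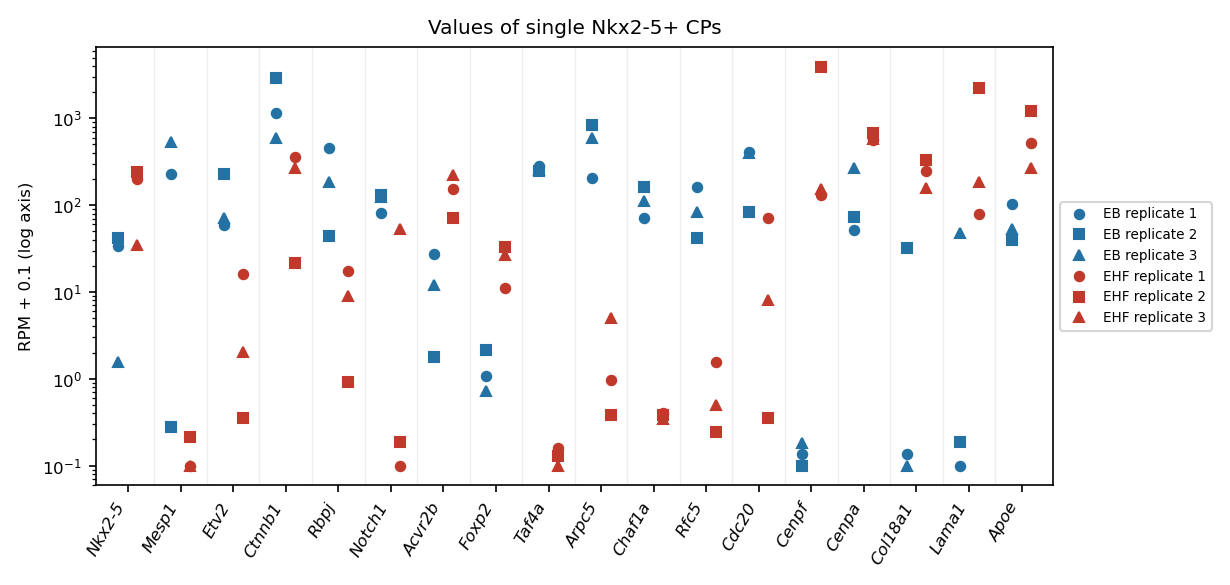
RPM of single Nkx2-5+ CPs for 18 genes, on a log axis after adding 0.1 RPM; blue marks are EB cells, red marks EHF cells, and the shape gives the replicate. Of the genes drawn, all but Nkx2-5 have the cells of both stages apart, as for Cenpf, at 132 to 3906 RPM in the EHF cells and below 0.1 RPM in the EB cells.

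Beside 10.6% lower and 2.22% higher among all genes, 1 of 5 compared streak and nascent mesoderm genes was lower and 0 were higher. It was Mesp1, the basic helix-loop-helix factor of the earliest cardiac mesoderm (chromosome 7 from 79792241 to 79793788), with 225, 0.176 and 532 RPM in the EB cells and 0, 0.113 and 0 RPM in the EHF cells (-4.71). The EHF cells were at 0 or at the worth of no more than 4 reads. EB replicate 2 was also at the worth of 4 reads, so only sequencing depth set it apart from EHF replicate 2. Evx1, a streak homeobox gene, was at 0, 239 and 113 against 0, 0.0564 and 0 RPM (-3.67, overlapping), and Snai1, a factor of the epithelial to mesenchymal transition, at 174, 30.1 and 270.3 against 31.5, 0.0282 and 121 RPM (-1.46, and -0.96 without EHF replicate 2, overlapping). The median of the list was -1.46, and -2.71 to -0.88 when 1 cell was left out.

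Paraxial mesoderm genes, which mark the neighbours of the heart field that form somites, were at a high level in single cells. Pcdh8 was at 0.036, 0 and 339 RPM and the NOTCH ligand gene Dll3 at 1.55, 0 and 287 RPM at EB, and both are listed at 0 in the EHF cells. Foxc1 was at 0.288, 0.265 and 161 against 2.33, 24.3 and 2.65 RPM (-1.69) and Pcdh19 at 259, 1.15 and 0.947 against 0.597, 0.649 and 1.76 RPM (-3.14). Foxc2 went the other way at 19.5, 0 and 13.99 against 106, 1.81 and 0 RPM (1.12), mostly from EHF replicate 1. EB replicate 3 thus held Pcdh8, Dll3 and Foxc1 and EB replicate 1 Pcdh19. Of 5 compared genes none had the stages apart, and the median of -3.14 was -0.0026 without EB replicate 3 and -1.69 without the genes listed at 0 in all cells of a stage. The defining factor Tbx6 was under 1 RPM in all 6 cells. The list summed to between 1.41 and 836 RPM in an EB cell and to between 4.49 and 109 RPM in an EHF cell.

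Of 12 compared lateral plate and allantois genes 3 were lower and 0 higher, beside 10.6% and 2.22% of all genes. Phlda2, an imprinted growth regulator of extraembryonic tissue, was at 3462, 1782 and 1953 RPM at EB and 1473, 62.3 and 50.7 RPM at EHF (-2.16, and -5.18 without EHF replicate 1). Foxf1, a forkhead factor of splanchnic mesoderm, was at 73.7, 0.309 and 91.7 against 0, 0.197 and 0 RPM (-2.70), with EB replicate 2 also near 0. Wnt2 was lower by the rule at 217, 0.0441 and 0.167 against 0, 0.0282 and 0 RPM (-3.04), but all of the difference came from EB replicate 1, and without that cell it was -0.01. For both Foxf1 and Wnt2, replicate 2 of EB and of EHF held the same number of reads, so only sequencing depth set the stages apart there. The list had a median of -2.15 that turned to 0.34 without EB replicate 1. Hand1, a factor of heart and extraembryonic mesoderm, was at 1158, 44.8 and 0.111 against 139, 0.649 and 0 RPM (-2.86) and overlapped.

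Cardiac transcription factors showed no shared direction. Of 10 compared, 5 were above and 5 below 0, none had the stages apart, and the median was -0.16 (-1.39 to 0.78 when 1 cell was left out). The zinc finger factor gene Gata4 was at 14.6, 6.57 and 219 RPM at EB and 9.01, 0.0564 and 0.721 RPM at EHF (-2.76). Gata5 was at 0.468, 0.132 and 0.0279 against 181, 0.0282 and 0.16 RPM (2.79), Gata6 at 7.24, 721 and 83.8 against 119.6, 4.66 and 33.0 RPM (-2.17), and the MADS box factor gene Srf at 2.38, 71.1 and 74.2 against 3.73, 0.395 and 0.641 RPM (-2.35). Each of these was carried by 1 or 2 cells of a stage. Sarcomere genes were also carried by single cells: the Z-disc gene Actn2 and the light chain gene Myl4 are listed at 0 in the EB cells and were at 124 and 80.6 RPM in EHF replicate 1. Values were at hand for 24 of 28 sarcomere genes, and 12 of these, among them Tnnt2, Myh6, Myh7 and Ttn, were under 1 RPM in all 6 cells. The share of all symbols under 1 RPM in all 6 cells was not counted. At 0 in all 6 cells were 9 of the 24, beside 2040 of all 14063 symbols. The median of the 6 compared sarcomere genes was -0.18, and -1.13 without the 2 listed at 0 at EB.

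Second heart field genes differed in both directions. Foxp2, a forkhead factor, was at 0.972, 2.03 and 0.613 RPM at EB and 11.1, 33.1 and 26.9 RPM at EHF (1.59), so it was higher in each EHF cell, as was Acvr2b. Isl1, a LIM homeodomain factor with a mean under the minimum of 10 RPM, was at 1.37, 0 and 0.0279 against 2.09, 10.9 and 14.03 RPM (0.86). The ligand genes Fgf10 and Fgf8, also under the minimum, were at 0.036, 0.176 and 0.0279 against 1.76, 0.367 and 7.94 RPM and at 0, 0 and 0.641 against 0, 15.2 and 16.8 RPM (0.41 and 1.02). Isl1 and Fgf10 had the stages apart and Fgf8, at 0 in EHF replicate 1, did not. Without EHF replicate 3 the difference of Fgf10 was 0.13. Fgf8, Fgf10, Foxp2 and Acvr2b are in the study's list of enriched genes from these very cells, and their direction is no independent evidence. Of 8 compared members of the list 2 were higher (Foxp2, Acvr2b) and 2 lower (Foxf1, Wnt2), beside 2.22% and 10.6% of all genes. The calls of Foxf1 and Wnt2 rest on sequencing depth, since replicate 2 of both stages held the same number of reads of each. The median of -0.997 turned to 0.67 without EB replicate 3. Hoxb1, a Hox gene of posterior heart precursors, was at 273, 0.309 and 0.0279 against 0.0298, 0.113 and 0 RPM (-3.33), all of it in EB replicate 1.

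Of 22 compared canonical WNT pathway genes 4 were lower (18.2%, against 10.6% of all genes) and 0 higher (2.22% of all genes). Ctnnb1, which encodes beta-catenin (chromosome 9 from 120929216 to 120960507), had 1161, 2888 and 587 RPM at EB and 359, 21.2 and 268 RPM at EHF (-2.78), and EHF replicate 2 was lowest. Pygo2, a coactivator of beta-catenin, was at 109, 143 and 5.91 against 0, 0.0282 and 0.16 RPM (-3.25). The corepressor gene Ctbp1 was at 349.7, 441 and 329 against 125, 137 and 213 RPM (-1.19). These 3 were lower in each EHF cell, as was Ccnd1, the cyclin D1 gene and a WNT target, at 144, 537 and 125 against 125, 35.3 and 0.401 RPM (-2.13, -1.19 without EB replicate 2 and -3.32 without EHF replicate 1). The call of Ccnd1 rests on a very narrow gap, between 125.016 RPM in EB replicate 3 and 124.815 RPM in EHF replicate 1. Lef1, which binds DNA together with beta-catenin, stood at 332, 0.265 and 204 against 4.42, 1.18 and 17.1 RPM (-3.43), and overlapped because EB replicate 2 had almost none. Tcf3 was at 190.2, 506 and 521 against 203, 250.5 and 119 RPM (-1.05, overlapping). In the whole list 15 genes were below 0, and the median was -0.78 (-1.701 to -0.65 when 1 cell was left out). Since the study listed Ctnnb1, Lef1, Tcf3 and Pygo2 from these data as enriched in the EB cells, their direction is no independent evidence.

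WNT antagonists and non-canonical WNT genes were measured in few cells each. Shisa2, of a family that in frogs holds back WNT and FGF receptors, was higher by the rule at 0.504, 0 and 1.25 against 2.30, 1.89 and 99.2 RPM (2.07), and without EHF replicate 3 the difference was 0.19. Frzb, a secreted antagonist, was at 4.54, 1.23 and 0.167 against 0.358, 3.22 and 190.1 RPM (2.64) and Wnt4 at 0.036, 1.98 and 0 against 0, 92.2 and 0.24 RPM (1.93, and -0.08 without EHF replicate 2), each from 1 EHF cell. Sfrp2, another secreted antagonist, went the other way at 137, 0 and 0 against 3.73, 0.0564 and 0 RPM (-2.31), from 1 EB cell. The median over 7 compared genes was 1.88, with 6 above 0, and turned to -0.02 without EHF replicate 3. Sfrp5, Wnt5a and Ror2 were under 1 RPM in all 6 cells.

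In the NOTCH pathway, Rbpj, the DNA-binding partner of the NOTCH intracellular domain (chromosome 5 from 53466152 to 53657362), was at 457, 44.0 and 186 RPM at EB and 17.5, 0.818 and 8.98 RPM at EHF (-3.65). The receptor gene Notch1 (chromosome 2 from 26457903 to 26516663) was at 81.4, 131 and 124 against 0, 0.0846 and 53.1 RPM (-2.14, and -3.60 without EHF replicate 3), so EHF replicate 3 kept most of what was left at EHF. EHF replicate 2 differed from the other EHF cells here: Notch3, the protease gene Adam17 and the target gene Hes1 were at 534, 2951 and 1879 RPM in it, against at most 47.8 RPM for any of them in the other EHF cells. Of 8 compared genes 3 were lower and 0 higher, beside 10.6% and 2.22% of all genes, with a median of -1.27 that was -0.53 without EB replicate 1, -2.33 to -0.01 over the 6 cells left out in turn, and -0.40 without genes listed at 0 in all cells of a stage. Notch1 and Rbpj were chosen by the study on these same cells.

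BMP and NODAL pathway genes showed no shared direction. Besides Acvr2b, 1 gene had the stages apart: Smad4, the common partner of the receptor SMADs, at 289, 644 and 465 RPM at EB and 163, 36.9 and 0.24 RPM at EHF (-2.63, and -4.06 without EHF replicate 1). Id1, a BMP target, was at 462, 158 and 0.223 against 201, 4300.1 and 622 RPM (2.99, and 0.96 without EHF replicate 2), and Id3, another target, at 1589, 528 and 705 against 826, 3747 and 613 RPM (0.87, and -0.38 without EHF replicate 2). The ligand gene Bmp7 was at 20.6, 0.397 and 0.111 against 207, 0.0282 and 55.5 RPM (2.52), and the receptor gene Acvr1 at 0, 251 and 0 against 0, 0.0282 and 0.802 RPM (-3.19), in 1 EB cell. Of 17 compared genes 10 were above 0 and 7 below, with a median of 0.04.

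Of 12 compared genes of the FGF pathway, 1 was lower (8.33%, against 10.6% of all genes) and 0 higher (2.22% of all genes). This gene, Dusp6, a feedback phosphatase of ERK, was at 0.144, 301 and 0.306 RPM at EB and 0.0597, 0 and 0 RPM at EHF (-3.46), and all of it came from EB replicate 2, since the difference was -0.03 without that cell. The receptor genes went separate ways and overlapped: Fgfr1 was at 662, 417 and 25.8 against 331, 131 and 194 RPM (-0.73, and -0.47 without EHF replicate 2), and Fgfrl1, a receptor without a kinase domain, at 0, 16.0 and 0 against 134, 0.649 and 119 RPM (2.62). The adaptor gene Grb2 was at 73.9, 23.3 and 50.6 against 27.9, 939.7 and 82.8 RPM (2.60, and 0.14 without EHF replicate 2). The median of the list was -0.77 (-1.24 to 0.49 when 1 cell was left out). For 3 hedgehog and 5 retinoic acid pathway genes no member had the stages apart. The medians were 0.69 and 0.06, and the retinoic acid hydroxylase gene Cyp26a1 reached 619.7 RPM in EHF replicate 3 alone.

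**Figure D3:**
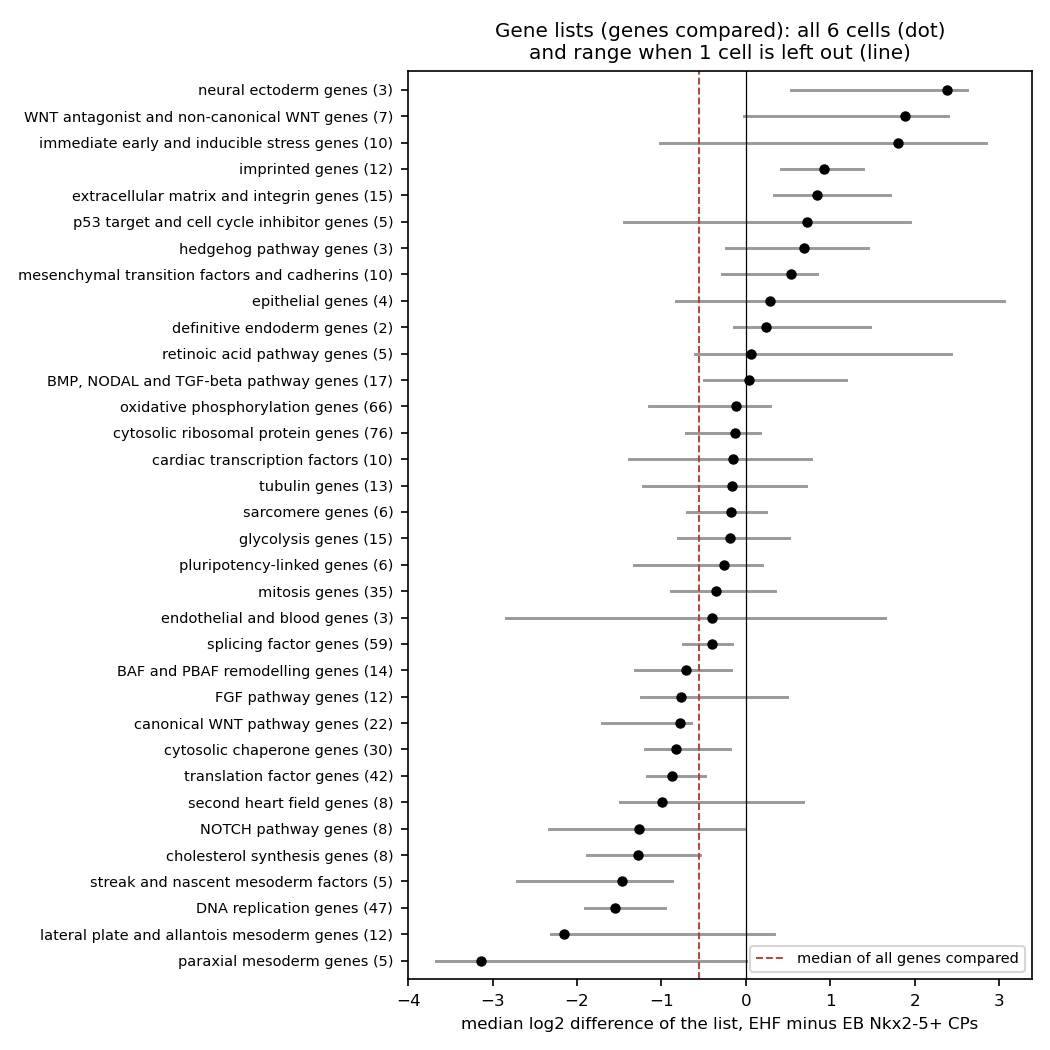
Median log2 difference, EHF minus EB Nkx2-5+ CPs, of each of 34 gene lists (dots, x axis) with the range of the median when 1 of the 6 cells was left out (lines); the number of genes compared is in brackets. The DNA replication genes (-1.55) stay below -0.55, the median of all genes (dashed line), with each cell left out, while lists with few genes, such as the 3 endothelial and blood genes, span more than 4 log2 units, and 21 of the 34 medians change sign for at least 1 cell left out.

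Genes of DNA replication were lower at EHF more often than genes overall. Of 61 genes of the list 47 were compared, 12 of them were lower (all genes 10.6%) and 1 was higher (all genes 2.22%), 34 were below 0, and the median was -1.55. Chaf1a, the large subunit of the histone chaperone CAF-1 that deposits histones behind the fork, was at 70.8, 160.0 and 111 RPM in the EB cells and 0.298, 0.282 and 0.24 RPM in the EHF cells (-3.59). Rfc5, a subunit of the clamp loader, was at 164, 42.1 and 83.7 against 1.46, 0.141 and 0.401 RPM (-3.32). Rpa1, which binds single-stranded DNA, was at 102, 109 and 42.7 against 1.58, 0.282 and 1.28 RPM (-3.10). Each of these 3 was at least at 42.1 RPM in every EB cell and at most at 1.58 RPM in every EHF cell.

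Subunits of the MCM helicase, a licensing factor and thymidine kinase were lower too, with some RNA left at EHF. Mcm6 was at 226, 179 and 73.2 RPM at EB and 35.6, 29.3 and 6.89 RPM at EHF (-2.32), and Mcm2 at 76.0, 13.7 and 33.8 against 7.49, 7.93 and 2.00 RPM (-1.69, and -1.09 without EB replicate 1). Tk1, thymidine kinase, was at 103, 40.4 and 115 against 0, 0.0564 and 15.5 RPM (-2.66), and the licensing factor gene Cdt1 at 162, 104 and 311 against 74.3, 0.0282 and 23.2 RPM (-2.25). The EHF cells were below the EB cells in each case, and EHF replicate 1 was highest among them for Mcm6 and Cdt1. The differences of Chaf1b, Lig1, Pola2 and Timeless were -2.08, -1.46, -2.18 and -1.72. Without EB replicate 3 those of Chaf1b and Timeless were -1.17 and -0.36, and without EB replicate 1 that of Pola2 was -0.59. The call of Pola2 rests on a very narrow gap near 0, between 0.195 RPM in EB replicate 3 and 0.179 RPM in EHF replicate 1. The exception was Gins2, a subunit of the GINS complex of the same helicase, at 50.1, 84.8 and 132 against 163, 1299.7 and 469 RPM (2.72, and 1.72 without EHF replicate 2).

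The replication genes differed between cells within EHF as well. At 10 RPM or more were 33, 38 and 32 of the 47 genes in the EB cells and 29, 13 and 17 in the EHF cells, so EHF replicate 1 lay near the EB cells. The sum over the 47 genes was 4484, 6075 and 4754 RPM at EB and 2834, 2743 and 3819 RPM at EHF, and the stages did not overlap in it. With each cell left out in turn the median ranged from -1.90 to -0.95. Without EHF replicate 2, the cell with the fewest genes, it was -1.16, with 12 genes lower and 2 higher. Of all genes, 13.6% were then lower and 7.94% higher, with a median of -0.42. EHF replicates 2 and 3 also had the fewest compared genes at 1 RPM or more, and the part of that in the counts was not tested.

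**Figure D4:**
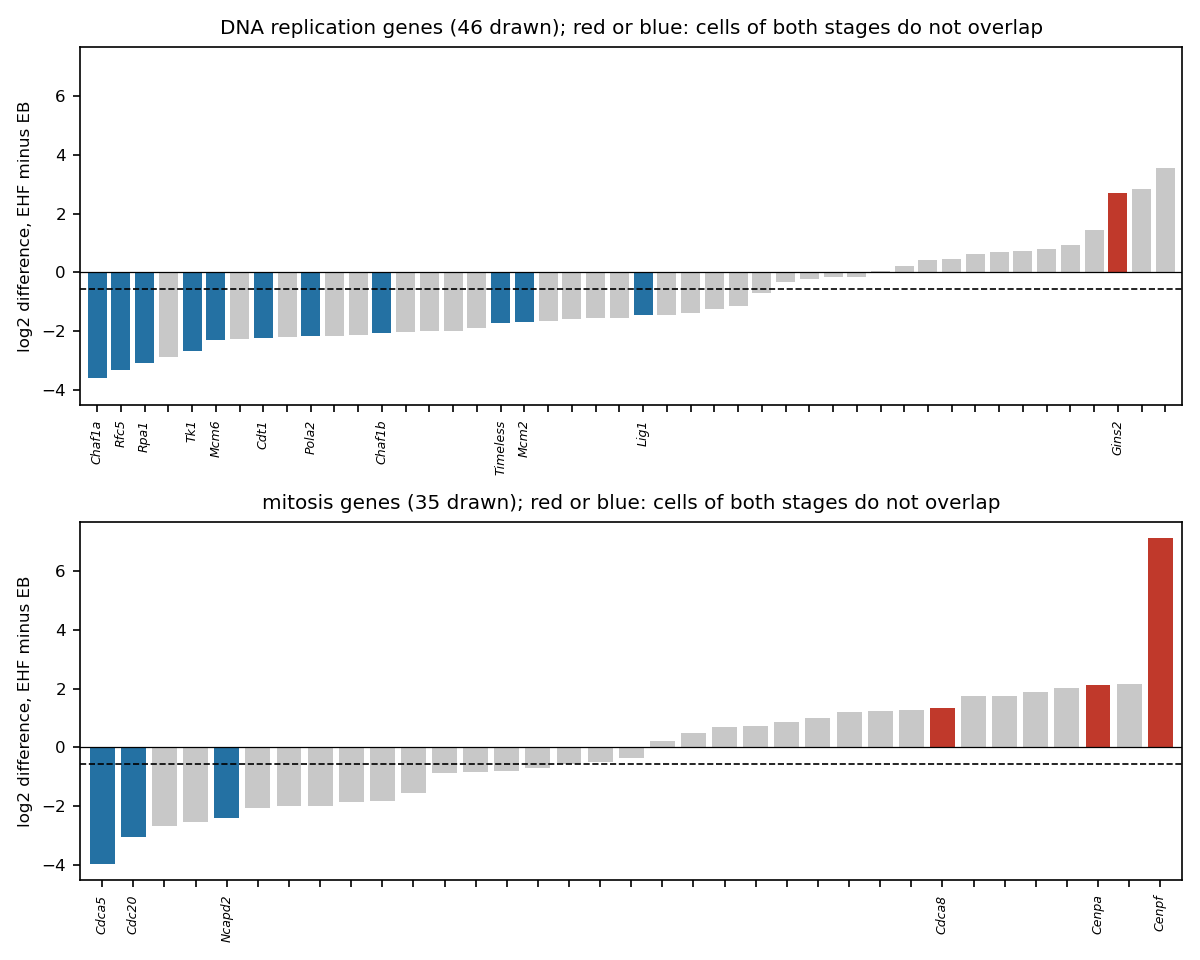
Log2 difference, EHF minus EB Nkx2-5+ CPs (y axis), of compared genes of DNA replication (top) and mitosis (bottom); blue and red bars are genes with all 3 EHF cells below or above all 3 EB cells, and the dashed line is the median of all genes. Of the replication genes 46 are drawn, of which 11 bars are blue and 1 is red; of the mitosis genes 3 are blue and 3 red, and Cenpf has the highest bar at 7.13.

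Genes of mitosis differed in both directions. Of 35 compared, 3 were higher (8.57%, against 2.22% of all genes) and 3 lower (8.57%, against 10.6% of all genes). Above 0 were 17 and below 0 were 18, with a median of -0.35 (-0.88 to 0.35 when 1 cell was left out). Besides Cenpf, the higher genes were Cenpa, the histone variant of the centromere, at 51.2, 72.0 and 270.1 RPM at EB and 563, 682 and 570.3 RPM at EHF (2.12), and Cdca8, a subunit of the chromosomal passenger complex, at 176, 122 and 20.0 against 388, 220.4 and 249.8 RPM (1.35, and 0.89 without EB replicate 3). Cenpa was at nearly the same level in the 3 EHF cells. The lower genes were Cdc20, the activator of the anaphase-promoting complex, at 408, 82.2 and 394 against 70.9, 0.254 and 7.87 RPM (-3.07), and Ncapd2, a condensin subunit, at 114, 356 and 153 against 89.2, 3.10 and 1.04 RPM (-2.40, and -4.17 without EHF replicate 1). The third, Cdca5, which encodes the cohesin regulator sororin, rested on EB replicate 2 at 1.44, 437 and 1.17 against 0.0597, 0.0846 and 0.0802 RPM (-3.96, and -0.17 without that cell). The summed RPM of the 35 genes overlapped between the stages, at 4556, 3825 and 3335 against 6213, 5731 and 3356 RPM.

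Promoters of late cell cycle genes often carry the cell cycle homology region, with the letters TTTGAA, and CCAAT boxes. They are shown for Cenpf and Cenpa, which were higher at EHF, for Cdc20, which was lower, and for the replication gene Chaf1a, which was lower, so that the shared letters can be read beside the opposite differences. Each run covers 250 bases before to 50 after the start of the gene in RefSeq on GRCm38.p6, 5′ to 3′ on the strand of the gene. Capitals mark CCAAT and TTTGAA on either strand (ATTGG and TTCAAA on the other).
Cenpf, chr1:189688037-189688336, minus strand: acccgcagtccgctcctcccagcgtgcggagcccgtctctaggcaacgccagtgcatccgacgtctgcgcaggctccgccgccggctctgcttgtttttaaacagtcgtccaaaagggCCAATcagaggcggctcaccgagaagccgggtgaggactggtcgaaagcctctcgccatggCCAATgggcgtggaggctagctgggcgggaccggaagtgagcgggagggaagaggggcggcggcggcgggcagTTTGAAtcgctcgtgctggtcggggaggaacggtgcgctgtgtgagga
Cenpa, chr5:30666636-30666935, plus strand: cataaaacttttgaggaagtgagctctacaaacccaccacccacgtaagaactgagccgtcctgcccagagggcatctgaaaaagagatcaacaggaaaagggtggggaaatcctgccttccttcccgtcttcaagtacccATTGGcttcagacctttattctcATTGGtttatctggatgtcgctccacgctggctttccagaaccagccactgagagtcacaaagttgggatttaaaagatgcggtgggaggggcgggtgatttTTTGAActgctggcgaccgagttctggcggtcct
Cdc20, chr4:118437294-118437593, minus strand: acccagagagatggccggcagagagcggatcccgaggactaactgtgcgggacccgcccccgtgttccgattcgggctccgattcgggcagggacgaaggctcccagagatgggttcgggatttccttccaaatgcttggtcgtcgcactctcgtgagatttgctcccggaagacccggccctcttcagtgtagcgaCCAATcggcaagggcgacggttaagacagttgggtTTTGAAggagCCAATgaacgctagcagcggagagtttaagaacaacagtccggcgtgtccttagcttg
Chaf1a, chr17:56040166-56040465, plus strand: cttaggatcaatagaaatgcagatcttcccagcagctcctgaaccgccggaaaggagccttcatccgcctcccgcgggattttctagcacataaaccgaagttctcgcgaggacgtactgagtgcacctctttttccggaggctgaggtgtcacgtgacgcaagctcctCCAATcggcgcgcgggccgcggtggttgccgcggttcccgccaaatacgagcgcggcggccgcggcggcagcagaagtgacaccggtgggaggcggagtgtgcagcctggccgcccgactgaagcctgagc
The promoters of Cenpf, Cenpa and Cdc20 each hold 2 CCAAT and 1 TTTGAA, and that of Chaf1a holds 1 CCAAT and none of the other string. Those of Cdca8, Cdca5 and Ncapd2 also hold TTTGAA, so all 6 mitosis genes whose stages were apart had it, 3 of them higher and 3 lower. So did 82.1% of the 28 compared mitosis genes with a promoter, and TTTGAA thus does not mark these 6 within the list.

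Over the lists, 28 of the 35 compared mitosis genes had a promoter in the table, and 82.1% of these held TTTGAA and 78.6% CCAAT. For the DNA replication genes, 39 of 47 had one, and 12.8% held TTTGAA and 59.0% CCAAT. Of all 27025 promoters of the table, 18.1% held TTTGAA and 37.9% CCAAT. Of the genes that were lower at EHF, 381 of 482 had a promoter, and the shares were 14.2% and 38.3%. Of those that were higher, 77 of 101 had one, and the shares were 10.4% and 37.7%. For the 3503 compared genes with a promoter they were 11.4% and 39.7%. TGCGCA, which recurs in the motif of the respiratory gene factor NRF1 and reads the same on both strands, was in 18.4% of the promoters of lower genes, 16.9% of those of higher genes and 18.98% of those of compared genes, against 8.06% of all. It was in 26.8% of the 56 promoters of oxidative phosphorylation genes. The mitosis list thus stood far above all promoters in TTTGAA, while genes grouped by their direction lay near the compared genes in each of the 3 letter strings.

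Genes of the extracellular matrix and integrins had a median of 0.84, above that of all genes, with 12 of 15 compared above 0 (37.9% of all genes). Of the 15, 2 were higher and 0 lower, beside 2.22% and 10.6% of all genes. Besides Col18a1 the higher gene was Lama1, a laminin chain of early basement membranes (chromosome 17 from 67697259 to 67822647), at 0, 0.0882 and 48.0 RPM at EB and 78.7, 2232 and 183 RPM at EHF (5.01, and 2.44 without EHF replicate 2). The partner chain gene Lamb1 was at 2.45, 61.2 and 0.446 against 1.55, 1075 and 2.48 RPM and overlapped. Its difference of 3.56 rested on EHF replicate 2, without which it turned to -1.38. The fibronectin gene Fn1 was at 1021, 933 and 2140.4 against 701, 4929.6 and 1720.1 RPM (0.84, and -0.17 without EHF replicate 2), and Nid2, the basement membrane linker nidogen 2, at 26.3, 10.7 and 1.12 against 11.4, 115 and 81.3 RPM (1.80). The median stayed above 0 with each cell left out, at 0.33 without EHF replicate 3 and up to 1.704 without EB replicate 2. Cdh2, which encodes N-cadherin of mesoderm, was lower at 1.22, 112 and 113 against 0.149, 0.451 and 0.401 RPM (-3.04), with EB replicate 1 also low, and Twist1, a factor of mesenchyme, overlapped at 103, 474 and 268 against 59.4, 1958 and 463 RPM (1.52, and -0.11 without EHF replicate 2).

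Imprinted genes were also above the median of all genes, at 0.92, with 9 of 12 compared above 0 (37.9% of all genes). Of the 12, 3 were higher and 1, Phlda2, lower, beside 2.22% and 10.6% of all genes. Snrpn, of the paternally expressed Prader-Willi cluster, was at 4.19, 1.79 and 29.3 RPM at EB and 69.6, 404 and 278 RPM at EHF (3.58). Meg3, a maternally expressed long RNA, was at 6.63, 70.7 and 0.613 against 139, 487 and 72.9 RPM (2.75, 4.16 without EB replicate 2 and 1.69 without EHF replicate 2). Gnas, which encodes the stimulatory G protein, was at 1122, 959 and 842 against 1163, 3953 and 2679 RPM (1.41), a narrow gap between EB replicate 1 and EHF replicate 1. Igf2 was at 389, 1635 and 80.7 against 1134, 761 and 739 RPM (0.32) and H19 at 49.8, 268 and 4.43 against 88.5, 4.51 and 129.9 RPM (-0.48, and 0.02 without EHF replicate 2), and both overlapped. With each cell left out the median ranged from 0.42 to 1.39. Gnas and Snrpn share their loci with further transcripts, and how overlapping transcripts were counted was not stated in the sources used here.

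Nuclear genes of oxidative phosphorylation were close to no difference as a list, with a median of -0.12 over 66 compared genes and 0.02 with rescaled RPM, while 5 were higher (7.58%, against 2.22% of all genes) and 2 lower (3.03%, against 10.6%). Ndufc2, a subunit of complex I, was at 267, 257 and 195 RPM at EB and 390.1, 1231 and 814 RPM at EHF (1.72), and Ndufc1, another, at 62.6, 35.5 and 174 against 271, 520.5 and 176 RPM (1.72). Of complex II, Sdhc was at 165, 401 and 48.1 against 500.0, 557 and 416 RPM (1.22, 2.11 without EB replicate 2 and 0.77 without EB replicate 3) and Sdhb at 209.9, 24.998 and 199.7 against 259, 297 and 266 RPM (0.87, and 0.40 without EB replicate 2). The gaps of Ndufc1 and Sdhb were narrow, and Ndufa12 (1.47) was 0.86 without EHF replicate 1. Lower were Cox7a2l, which helps join complexes III and IV, at 145, 292 and 455 against 79.4, 86.2 and 30.5 RPM (-2.03), and the cytochrome c gene Cycs at 129, 53.3 and 169.7 against 44.4, 7.73 and 50.2 RPM (-1.53). In EHF replicate 2, 38 of the 66 genes were at 1 RPM or more, against 63 to 66 in the other 5 cells. Without EHF replicate 2, 11 were higher and 2 lower (16.7% and 3.03%, against 7.94% and 13.6% of all genes). Without EHF replicate 1, which had the highest sum, 5 were higher and 19 lower (7.58% and 28.8%, against 3.88% and 24.8% of all genes). The median of the list was then -1.15, beside -1.25 for all genes.

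Glycolysis genes had a median of -0.19 over 15 compared. Slc2a1, which encodes the glucose transporter GLUT1 (chromosome 4 from 119108711 to 119137983), was higher in each EHF cell at 551, 518 and 135 against 1153, 3647 and 789.5 RPM (2.19, and 1.25 without EHF replicate 2). Ldhb, a lactate dehydrogenase subunit, was lower at 167, 323 and 206 against 145, 12.8 and 119.5 RPM (-1.24, and -0.77 without that cell). The enzyme gene Gapdh, used as PCR control, overlapped between the stages at 223, 187 and 306 against 191, 178 and 113 RPM (-0.55). Of 8 compared genes of cholesterol synthesis 2 were lower and 0 higher, beside 10.6% and 2.22% of all genes. The median of the list was -1.28 (-1.88 to -0.54 when 1 cell was left out). Sqle, squalene epoxidase, was at 50.4, 119 and 111 against 0.239, 1.58 and 0.24 RPM (-3.27) and was near 0 in each EHF cell.

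Of 42 compared translation factor genes 7 were lower (16.7%, against 10.6% of all genes) and 1 higher (2.38%, against 2.22% of all genes), with a median of -0.88. Pabpc1, the poly(A)-binding protein, was at 2923, 2787 and 1419 RPM at EB and 1157, 161 and 305 RPM at EHF (-2.11, and -3.30 without EHF replicate 1), and Eif5a, an elongation factor gene, at 2586, 2295 and 2488 against 1747, 304 and 953 RPM (-1.29, and -1.95 without it). The exception was Eif1ax, a factor of start codon scanning, at 298, 139 and 429.6 against 672, 1802 and 685 RPM (1.83, and 1.21 without EHF replicate 2). The other lower genes were Eif3m, Eif2s3x, Eif4a3, Eif4g2 and Eif4g3, and the last rested on EB replicate 2 (-2.34, and -0.67 without it). Of 30 cytosolic chaperone genes 6 were lower (10.6% of all genes) and 0 higher, with a median of -0.82. Hsp90ab1 was at 3034, 3874 and 2381 against 1619, 227 and 466 RPM (-1.99, and -3.12 without EHF replicate 1), and Tcp1, of the chaperonin that folds actin and tubulin, at 198, 1325 and 824 against 190.4, 13.5 and 23.0 RPM (-3.21). EHF replicate 1 was highest among the EHF cells for Pabpc1, Eif5a, Hsp90ab1 and Tcp1.

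Cytosolic ribosomal protein genes hardly differed as a list, with a median of -0.13 over 76 compared. Of these, 1 was higher and 1 lower (1.32% each, against 2.22% and 10.6% of all genes). Rplp2 was at 690.5, 407 and 962 RPM at EB and 1719, 1185 and 1109 RPM at EHF (0.95), and Rpl22 at 113, 194 and 136 against 96.5, 43.2 and 20.2 RPM (-1.32). Many pseudogenes share reads with these genes, so single values are uncertain. Their sum varied within each stage, from 31532 to 60588 RPM at EB and from 25508 to 70322 RPM at EHF over the 81 members in the table. Without EHF replicate 1, the cell with the highest sum, 1 gene was higher (1.32%, against 3.88% of all genes) and 32 lower (42.1%, against 24.8%). Without EHF replicate 2, the cell with the lowest, 10 were higher (13.2%, against 7.94% of all genes) and 1 lower (1.32%, against 13.6%).

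Of 59 compared splicing factor genes 6 were lower (10.2%, near the 10.6% of all genes) and 0 higher, with a median of -0.40, also near that of all genes. Ptbp1, a repressor of exon inclusion, was at 1170.4, 1025 and 1094 RPM at EB and 359, 5.56 and 315 RPM at EHF (-2.23), so the EB cells were closely alike and EHF replicate 2 was far lower. Zrsr2, of the minor spliceosome, was at 68.0, 211 and 292 against 14.6, 10.3 and 2.65 RPM (-3.38), and Prpf8, the core of the spliceosome, at 99.9, 142 and 228 against 76.4, 0.649 and 25.009 RPM (-1.92). Of 14 BAF and PBAF chromatin remodelling genes the core subunit Smarcc1 was higher at 0.576, 1.499 and 0.418 against 32.9, 125 and 2.16 RPM (2.55, and 1.35 without EHF replicate 2). Actl6a, another subunit, was lower at 135, 18.6 and 5.07 against 2.84, 0.113 and 2.65 RPM (-2.41, and -0.88 without EB replicate 1). Of 13 compared tubulin genes 1 was higher and 1 lower: Tubb5, a beta-tubulin, was at 2952, 2705 and 2355 against 3791, 6036 and 4060.2 RPM (0.79), and Tuba1b, an alpha-tubulin, at 2517, 1894 and 2067 against 1834, 52.1 and 207 RPM (-1.62, -3.96 without EHF replicate 1 and -1.07 without EHF replicate 2). Reads of the near-identical alpha-tubulin genes can be split between them. Beside the single members called in the remodelling and tubulin lists, 2.22% of all genes were higher and 10.6% lower.

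Immediate early and stress genes set EHF replicate 2 apart. The AP-1 factor gene Fos was at 0, 106 and 460.2 RPM at EB and 0, 7495 and 0.0802 RPM at EHF, and Fosb at 0, 0 and 208 against 0, 3158 and 0 RPM. The inducible heat shock gene Hspa1a was at 1182 RPM in EHF replicate 2 and at most at 0.324 RPM in the other 5 cells, and the DNA damage response gene Gadd45a was at 0, 127 and 0 against 0, 1261 and 0 RPM. Each of these was high in EHF replicate 2 and near or at 0 in EHF replicates 1 and 3. The 10 compared genes summed to 171, 1223 and 1621 RPM at EB and 291, 12630.5 and 458 RPM at EHF, and their median of 1.80 turned to -1.02 without EHF replicate 2. Hspa1b, nearly identical to Hspa1a, was the 1 gene with the stages apart, and its difference of 3.11 was 0.02 without that cell. Of 5 compared p53 target and cell cycle inhibitor genes none had the stages apart. The part of the state of EHF replicate 2 in the EHF means was not tested.

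Of the markers of cell types beside the heart field, some were under 1 RPM in all 6 cells and others were high in single cells. A level under 1 RPM was common among all genes. Of the 14063 symbols, 3073 to 5193 were at 1 RPM or more in a cell. The share of all symbols under 1 RPM in all 6 cells at once was not counted, so the numbers below do not show that a cell type was absent. At 0 in all 6 cells were 2040 of the 14063 symbols. Of the genes with values these were 6 of 14 endoderm, 1 of 12 neural, 4 of 12 epithelial and 3 of 14 endothelial and blood genes. Among 14 definitive endoderm genes with values, 10 were under 1 RPM in all 6 cells, Sox17 and Foxa2 included. The list summed to 64.2 to 203 RPM in the EB cells and 271 to 1223 RPM in the EHF cells, nearly all of it Apoe, which other tissues also express. The second compared gene, Epcam, was at 164 RPM in EB replicate 2 and is listed at 0 in the EHF cells. Of 12 neural ectoderm genes 6, among them Sox3, Six3 and Pax6, were under 1 RPM in all 6 cells. The neural list summed to 10.8 to 134 RPM at EB and 108 to 412 RPM at EHF, mainly from Sox11 at 7.49, 56.8 and 8.75 against 2.27, 107 and 400.2 RPM (2.39) and the adhesion gene Ncam1 at 3.17, 0.309 and 0.697 against 158, 0.677 and 12.3 RPM (2.56), and neither had the stages apart. Both genes are also expressed outside the nervous system.

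Epithelial genes were found in single cells of both stages, while the defining Cdh1 was under 1 RPM in all 6. The keratin gene Krt8 was at 2.77, 654 and 55.7 against 658, 855 and 145 RPM (1.19, and 0.73 without EHF replicate 2), and the desmosome gene Dsp at 118, 113 and 0 against 58.5, 5.84 and 906 RPM (1.94), and the list summed to 55.8 to 1842 RPM at EB and 898 to 1251 RPM at EHF. Of 14 endothelial and blood genes 8, among them Flt1, Tek and Gata1, were under 1 RPM in all 6 cells. Etv2, a factor of the endothelial and blood lineages, was lower in each EHF cell at 59.0, 229 and 70.7 against 15.9, 0.254 and 1.92 RPM (-3.02). Its target Kdr, the VEGF receptor gene, was at 395 RPM in EB replicate 2 and 495 RPM in EHF replicate 3 and near 0 in the other 4 cells. The part of these markers in the stage differences was not tested. Of the pluripotency-linked genes, 6 were compared and none had the stages apart: Sall4 was at 105, 505 and 298 against 150.3, 6.86 and 16.3 RPM (-2.21) and the DNA methyltransferase gene Dnmt3b at 73.9, 62.1 and 207 against 251, 0.0282 and 192 RPM (0.34, and 0.90 without EHF replicate 2).

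The same genes were set beside the cells of the other label, the EHF Nkx2-5+/Tbx5+ CPs against the EB Tbx5+ CPs, which share no cell with the comparison above. There 166 of the 4558 genes were higher in all 3 EHF cells (3.64%) and 214 lower (4.70%), and the median was -0.0040. Of the 101 genes that were higher in the Nkx2-5+ CPs, 6 were higher, 6 lower and 89 overlapping there. Of the 482 that were lower, 27 were lower, 13 higher and 442 overlapping. The Spearman correlation of both differences across the 4558 genes was 0.0191, as a description of genes that are not independent. The difference between both comparisons was not tested.

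**Figure D5:**
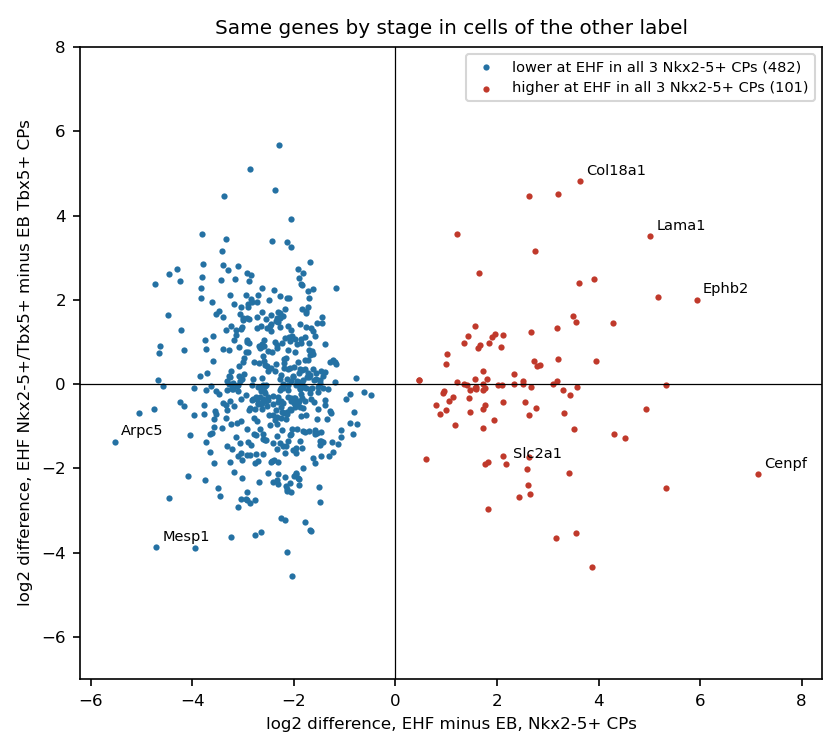
Log2 difference by stage in the Nkx2-5+ CPs (x axis) and in the cells of the other label (EHF Nkx2-5+/Tbx5+ minus EB Tbx5+ CPs, y axis) for the 101 genes (red) and 482 genes (blue) whose cells did not overlap by stage in the Nkx2-5+ CPs. The points spread about 0 on the y axis on both sides, with Mesp1 low and Lama1 high on both axes.

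A few genes were apart by stage in the same direction with both labels, 6 of the 101 higher and 27 of the 482 lower genes. These numbers lie near the shares of all genes with the other label (3.64% higher and 4.70% lower). The genes below are examples and not a sign of a shared stage difference. In the EB Tbx5+ CPs Mesp1 was at 0.218, 317 and 90.2 RPM, and it is listed at 0 in the EHF Nkx2-5+/Tbx5+ CPs. Cdh2 was at 163, 0.857 and 5.33 against 0, 0 and 0.0287 RPM there (-2.73, beside -3.04). With each label, both were thus lower in RPM in every EHF cell than in the EB cells. For Mesp1 in the Nkx2-5+ CPs, replicate 2 of both stages held the same number of reads, so only sequencing depth set these cells apart. Lama1 was at 0, 0 and 53.3 against 238, 134 and 553 RPM (3.52, beside 5.01, and 2.44 without EHF Nkx2-5+ replicate 2), and Ephb2 at 0.191, 0 and 0 against 54.2, 31.5 and 5.28 RPM (2.00, beside 5.93, and 2.17 without that cell). The chaperone gene Dnajc8 and the BAF subunit gene Actl6a were lower with both labels (-1.65 and -0.74 there, beside -2.74 and -2.41, the latter -0.88 without EB Nkx2-5+ replicate 1). For the replication and mitosis lists the medians with the other label were -0.21 and -0.19, beside -1.55 and -0.35 here.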

How the data were processed

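Single cells of the mouse cardiac region were lysed, and their cDNA was amplified by PCR and sequenced. The deposited values are signal values in RPM: per the paper's methods and the labels, the authors aligned the reads to the mouse genome mm10 (CASAVA 1.7.0 and Partek are the tools in the submitters' processing notes), counted reads per gene and divided by the aligned reads of the cell. Amplification without molecular identifiers means that reads are not independent molecules, and intervals and floors cover counting error only. The deposited sheet holds the same values 64 times. One copy was used, and 22 of 14085 names that a spreadsheet had turned into dates were left out.

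Gene symbols were grouped with cells by the column names. Because no embryo is named, each subpopulation was 1 sample of 3 cells, and no p-value was computed. Column headers give sequencing lanes for some of the cells, and lane and cell cannot be told apart. Genes with a mean of 10 RPM or more over the 6 cells were compared by log2((mean EHF + 10)/(mean EB + 10)) and by whether the cells of both stages overlapped. The 34 gene lists and the members were chosen with earlier results of these data known. Many genes named, among them Etv2, Chaf1a, Rfc5, Sqle, Cenpa, Apoe and Gins2, are in the study's lists of genes enriched in these cells. The direction of such genes is no independent evidence. The genes named were the 15 with the widest gap and the 10 with the largest difference in each direction, a fixed set of label and pathway genes, and per list up to 5 genes with the largest difference among those whose stages were apart, made up to 4 by the largest differences of the rest. Outside this rule, Bmp7, Cdca8, Cdt1, Chaf1b, Eif4a3, Eif4g2, Eif5a, Fgfr1, Fn1, Foxc2, Gata6, H19, Hes1, Hoxb1, Id3, Igf2, Lig1, Mcm2, Mcm6, Nid2, Notch3, Pola2, Sdhb, Sdhc, Timeless, Tk1, Twist1 and the markers named as under 1 RPM were picked with their values in view. Positions of genes follow GRCm38, and 4350 of the compared genes had 1 place in its annotation. A few genes that the rule names are not reported here, though they stay in the counts and medians of their lists. Promoters came from RefSeq on GRCm38.p6. Alternatives were 1 or 100 RPM added, the mean of log2 values, the median over cells, rescaled RPM, no minimum, a minimum of 50 RPM, each cell left out, and, chosen after seeing the data, no genes listed at 0 in all cells of a stage. The scripts, in Python 3.11.15 with matplotlib 3.10.9, scipy 1.17.1, pandas 2.3.3 and numpy 2.4.6, were tested on simulated data. The simulated cells varied much less within a stage than these cells and lost no RNA to 0. That test checks the code and not how the rule of no overlap behaves on such cells.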

Additional observations from a re-analysis of the deposited data

Results flagged for a closer look

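For 4 of the named genes, all cells moved one way by stage in the Nkx2-5+ CPs and the opposite way with the other label (EHF Nkx2-5+/Tbx5+ against EB Tbx5+ CPs), and the difference between both was not tested. Cdc42ep5, listed at 0 in the EB Nkx2-5+ CPs and with a mean of 104 RPM in the EHF Nkx2-5+ CPs, was lower at EHF with the other label (log2 difference -1.07). Slc2a1, the glucose transporter gene, had differences of 2.19 and -1.90, and the first was 1.25 without EHF Nkx2-5+ replicate 2. Smad4, the partner of the receptor SMADs, had differences of -2.63 and 1.71, and the first was -4.06 without EHF Nkx2-5+ replicate 1. Tubb5, a beta-tubulin gene, had differences of 0.79 and -0.50. Over all compared genes, 6 of the 101 higher and 13 of the 482 lower genes of the Nkx2-5+ CPs were apart the opposite way with the other label, and 6 and 27 the same way. These counts are to be read beside all 4558 genes, of which 3.64% were higher and 4.70% lower at EHF with the other label.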

How the results depend on the processing

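No paired analysis was possible because the comparison rests on no test and the replicate numbers only name the cells. With 100 RPM added, 243 genes were at least 2-fold higher and 329 at least 2-fold lower, and of the lists with a median at least 2-fold lower (6) or higher (3) there were 0 and 0. The mean of log2 values gave 621 genes at least 2-fold higher, and the median over cells 549, with 2 lists lower. Rescaled RPM gave 5 lists higher. Without a minimum 328 genes were higher and 804 lower without overlap, the lists lower and higher were 0 and 0, the mean Spearman coefficients were 0.596 within and 0.583 between stages, and the neural ectoderm median was -0.000857. With a minimum of 50 RPM 57 genes were higher and 219 lower without overlap, 408 and 696 at least 2-fold, 8 lists were higher, the NOTCH median was 0.64, and the coefficients were 0.295 and 0.256. Leaving out genes listed at 0 in all cells of a stage gave 5 lists higher. A minimum sets how many genes enter, and 100 RPM added shrinks the differences of low genes by construction. For the other settings the cause was not tested.

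With each cell left out in turn, 177 to 362 genes were higher and 618 to 1129 lower, 780 to 1168 at least 2-fold higher and 1592 to 2485 lower, the median of all genes was -1.25 to -0.22, and 3 to 16 lists were lower and 1 to 9 higher. Of the 34 list medians 21 changed sign with at least 1 cell left out, among them those of the second heart field (-1.49 to 0.67), lateral plate and allantois (-2.30 to 0.34), WNT antagonists (-0.023 to 2.40) and immediate early genes (-1.02 to 2.84). Of 175 named genes, 108 moved by more than the spread between cells with 100 RPM added, 83 with 1 RPM added, 57 with the median over cells, 9 to 20 when a cell was left out, 1 with the mean of log2 values and 0 with rescaled RPM. Amplification of single cells and 1 sample a stage limit every value, and the loss of RNA in amplification was not measured.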
